A study of Drosophila melanogaster with 9 samples.

Results

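The maltase family was followed across 9 RNA-seq libraries of whole adult Drosophila melanogaster. Its members were taken by symbol, as every gene deposited as Mal-A or Mal-B followed by a digit. This gave 10 genes, Mal-A1 to Mal-A8 with Mal-B1 and Mal-B2, among the 13140 genes counted in all 9 libraries, and all 10 passed the filter on low counts that left 12913 genes for testing. The GP/P and GP/M flies were F2 descendants of an obese grandfather, and the series title traces that obesity to mutation of AKHR, the adipokinetic hormone receptor. The heterozygous F1 parent was the father in GP/P and the mother in GP/M, while WT controls had no obese grandparent and no heterozygous parent. All 3 groups were wild-type in genotype, of Canton S background and 10 to 11 days old, with 3 libraries each. The labels give neither the sex of the flies nor how many were pooled in a library.

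Maltases are alpha-glucosidases, enzymes that release glucose from the ends of maltose and of the short chains left when amylase cuts starch. In flies they act mainly in the midgut, the main site of digestion and absorption. Transcripts of digestive carbohydrases are known to fall on high-sugar food, and sugar sensing and insulin-like, adipokinetic and activin-type signals have been tied to this. The comparisons with WT ask whether descent from an obese grandfather through a heterozygous parent leaves a mark on these transcripts in genetically wild-type flies. An obese grandfather and a heterozygous parent go together in both lines, so their parts cannot be told apart. In whole-fly RNA, fewer cells of a type and less RNA per cell cannot be told apart.

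Each experiment gave a set of 3 libraries, with a library from every group, and a set is named here by the replicate number its libraries share. Libraries held 21777434 to 28166388 counts in all. Defining midgut markers were present: mex1, npc1b, mag and alphaTry were detected in every library. The marker betaTry reached only 0.693 to 1.70 CPM of total counts, that is, without TMM factors. Where total counts are not named, CPM are counts scaled to library size, with TMM factors that correct for composition. Summed ovary and yolk markers were at 13.8 to 23.7 CPM and summed male accessory gland markers at 2358 to 2674 CPM. Across sets the summed fat body markers were uneven. They came to 3853 to 4367 CPM in set 3, 3385 to 3494 CPM in set 2 and 3158 to 3227 CPM in set 1.

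The family falls into a pair of gene clusters. In the Ensembl annotation, Mal-A1 to Mal-A8 follow each other on arm 2R with no other coding gene between them, bounded by Cyp4e1 and mtt. Mal-B1 and Mal-B2 are neighbours on arm 2L. That annotation is of a later build than the dm3 named for the counts, so it was used for names, order and exon lengths only. Mal-A1 overlaps Cyp4e1 and Mal-A8 overlaps mtt in it. Cyp4e1 averaged 39.2 CPM where Mal-A1 averaged 2857 CPM, and mtt averaged 5.64 CPM where Mal-A8 averaged 617 CPM. Mal-B1 and Mal-B2 both overlap Pde1c, which was not analysed here. How the counting treated strand and reads that match several maltases is not given here by label or header, and a read shared between close paralogues may be assigned to either.

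Maltase transcripts were abundant, and most of their order was the same in all 9 libraries. Together they took 0.725%, 0.762% and 0.780% of all counts in GP/P replicates 1 to 3. The shares were 0.690%, 0.786% and 0.745% in GP/M replicates 1 to 3, and 0.667%, 0.785% and 0.823% in WT replicates 1 to 3. The lowest and the highest of these 9 shares were both WT libraries. Per kilobase of exon, a scale that allows genes to be compared, Mal-A1 (FBgn0002570) was highest at 1565 ± 103 CPM per kb (SD over the 9 libraries), at rank 22 of 12407 genes with a known length. Mal-A1, with Mal-A2 and Mal-A3, is among the genes first described as larval visceral proteins. It alone took 36.8% to 39.0% of the family's counts. Mal-A6 (FBgn0050360) followed at 606 ± 34.9 CPM per kb and held rank 155.

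**Figure D1:**
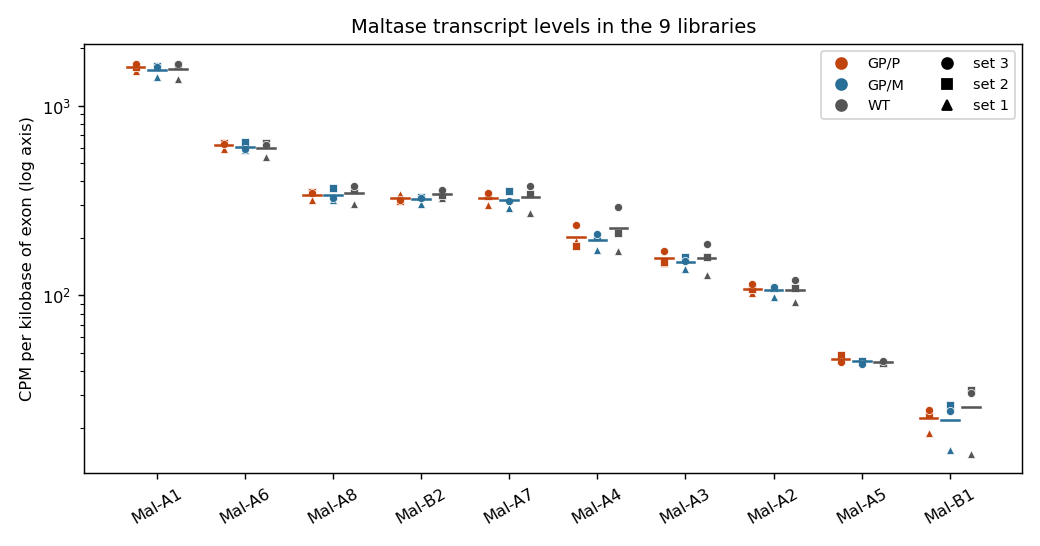
Maltase transcript levels in CPM per kilobase of exon (log axis), with a point per library, symbols by set and a bar at each group mean (GP/P, GP/M, WT; n = 3 each). Mal-A1 lies at 1383 to 1665 CPM per kb and Mal-B1 at 14.6 to 31.7 CPM per kb, and the groups overlap for every gene.

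A middle tier held genes of both clusters. Mal-A8 (FBgn0033297) was at 340 ± 25.6, Mal-B2 (FBgn0032382) at 329 ± 16.1 and Mal-A7 (FBgn0033296) at 325 ± 33.7 CPM per kb (SD over the 9 libraries). Their ranges overlapped, with Mal-A8 above Mal-B2 in 7 and Mal-B2 above Mal-A7 in 4 of the 9 libraries, so their order is not resolved. Mal-A4 (FBgn0033294) at 208 ± 37.7 and Mal-A3 (FBgn0002571) at 155 ± 17.4 CPM per kb came next. The range of Mal-A4 overlapped that of Mal-A7 above it and of Mal-A3 below it, although Mal-A7 exceeded Mal-A4 and Mal-A4 exceeded Mal-A3 in 9 of 9 libraries. Mal-A2 (FBgn0002569) was at 107 ± 8.41, Mal-A5 (FBgn0050359) at 45.3 ± 1.44 and Mal-B1 (FBgn0032381) at 23.4 ± 6.11 CPM per kb, each apart from its neighbours in every library. Neighbours in a cluster were at different levels, as with Mal-A5 and Mal-A6, or Mal-B1 and Mal-B2.

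Against WT, flies descended through the father showed no called change in any maltase. None of the 10 genes passed an adjusted p of 0.05 in GP/P against WT by edgeR's quasi-likelihood test with Benjamini-Hochberg adjustment over 12913 genes. The background was the same, with 0% of all genes called. None of the 10 had an unadjusted p under 0.05, where 334 of all genes did (885 with the set as a block, again with no maltase), and DESeq2 and limma-voom called no maltase either. Fitted folds ran from 0.879 (Mal-B1) to 1.04 (Mal-A5), and 4 of the 10 lay above 1. That number was 8 without WT 3, 7 without GP/P 1, 2 without GP/P 3 and 1 without WT 1.

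Mal-A1 had 2766, 2925 and 3025 CPM in GP/P replicates 1 to 3, against 2525, 2983 and 3040 CPM in WT replicates 1 to 3. The GP/P values all lay inside the WT range, and the fold was 1.02 with a 95% interval of 0.910 to 1.14. Mal-A5 averaged 97.5 ± 4.21 CPM in GP/P and 93.9 ± 1.08 CPM in WT (SD, n = 3 each), with an interval of 0.967 to 1.12 around its fold. For Mal-A1, Mal-A2, Mal-A5, Mal-A6, Mal-A8 and Mal-B2, 6 of 10 genes, the interval stayed within a 1.2-fold change in either direction. It was wider for the other four, most of all for Mal-A4 and Mal-B1. Mal-A4 had 347, 326 and 417 CPM in GP/P replicates 1 to 3, against 305, 379 and 524 CPM in WT replicates 1 to 3, a fold of 0.903 with an interval of 0.653 to 1.248. Its WT 3 library was the highest of all 9, and without that library the log2 difference turned to 0.09. Mal-B1 had 34.1, 43.1 and 45.1 CPM in GP/P replicates 1 to 3, against 26.5, 57.5 and 55.6 CPM in WT replicates 1 to 3, and its interval of 0.497 to 1.55 leaves a change of either sign undetected at this spread. With the set as a block the interval for Mal-B1 was 0.682 to 1.203.

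Flies descended through the mother gave the same count. In GP/M against WT 0 of 10 maltases and 0% of all genes were called, none of the 10 had an unadjusted p under 0.05 (198 of all genes did, and 452 with the block), and DESeq2 and limma-voom called none. The fitted fold was below 1 for 8 of the 10 and ran from 0.862 (Mal-B1) to 1.01 (Mal-A6). Without WT 3 it was below 1 for 2 of the 10, and without GP/M 1 for 5 of the 10. Mal-B2 had 708, 772 and 758 CPM in GP/M replicates 1 to 3, against 760, 786 and 833 CPM in WT replicates 1 to 3. The GP/M library was the lower in 3 of 3 sets, yet the groups overlapped, and the fold was 0.941 with a 95% interval of 0.864 to 1.02. With the set as a block, which pairs the libraries, the interval was 0.881 to 1.004 (unadjusted p = 0.0651 by edgeR). No other maltase went the same way in all 3 sets. Mal-A4 averaged 349 ± 34.1 CPM in GP/M and 403 ± 111 CPM in WT (SD, n = 3 each), with log2 differences of 0.03, -0.07 and -0.48 in sets 1, 2 and 3.

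**Figure D2:**
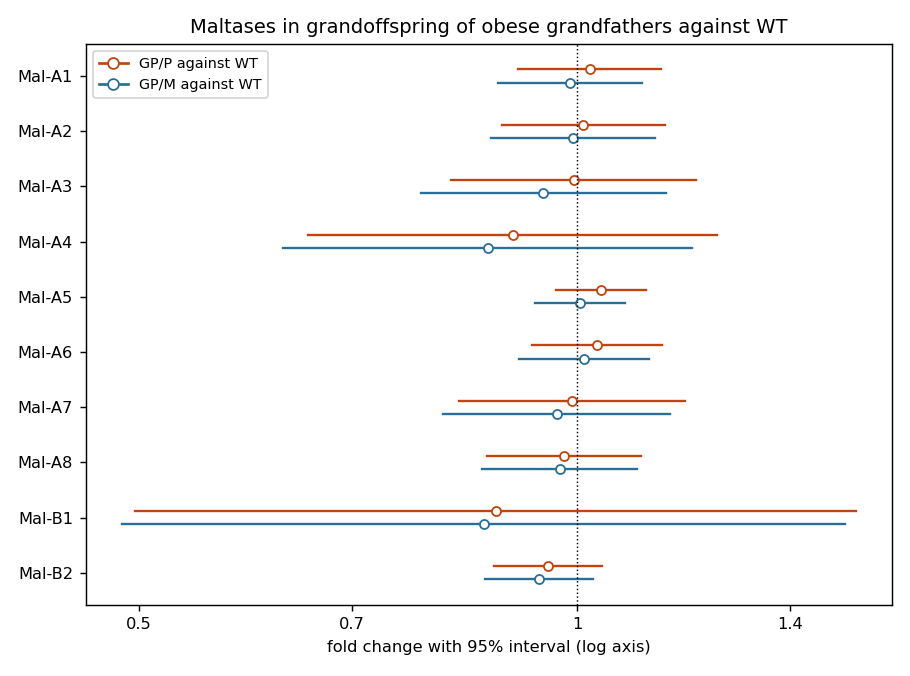
Fold change of each maltase in GP/P and GP/M against WT (log axis, points) with 95% intervals (lines) from edgeR, 3 libraries per group. All 20 intervals span 1, and those of Mal-B1 and Mal-A4 are the widest.

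In the authors' deposited table the smallest unadjusted p of a maltase was 0.0547, for Mal-B1 in GP/M against WT, with a fold of 0.884. By edgeR the unadjusted p of Mal-B1 in that comparison was 0.554, and 0.282 with the set as a block. Mal-B2 came next in the authors' deposited table at p = 0.0717 and a fold of 0.941. The adjusted p of both was 1.00 there, as it was for the other maltases. Of all genes the authors' values put 4 of 13087 under an adjusted p of 0.05 in GP/M against WT. They put 1 of 13111 there in GP/P against GP/M and 0 of 13073 in GP/P against WT.

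Descent through the father and descent through the mother were also not separated. In GP/P against GP/M 0 of 10 maltases and 0% of all genes were called, with 220 of all genes (592 with the block) and no maltase at an unadjusted p under 0.05, and none called by DESeq2 or limma-voom. All 10 fitted folds lay slightly above 1, between 1.01 (Mal-A8) and 1.05 (Mal-A3). This direction rested on single libraries, since 3 of 10 lay above 1 without GP/M 1 and 4 of 10 without GP/P 3. Mal-A5 alone was higher in GP/P than in GP/M in 3 of 3 sets. It had 96.5, 102 and 93.9 CPM in GP/P replicates 1 to 3, against 96.3, 95.2 and 91.6 CPM in GP/M replicates 1 to 3. The groups overlapped, and the fold was 1.03 with an interval of 0.963 to 1.11. Both lines together against WT gave 0 of 10 maltases and 0% of genes called by edgeR, with 260 of all genes (655 with the block) and no maltase at an unadjusted p under 0.05, and none called by DESeq2 or limma-voom. The fold of both lines together ran from 0.870 (Mal-B1) to 1.02 (Mal-A5). The groups overlapped for all 10 maltases in each pairwise comparison, where groups were apart for 8.48% of all genes in GP/P against WT, 4.90% in GP/M against WT and 6.92% between the lines. These comparisons share libraries, so their values are set side by side and not combined.

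Between the 3 experimental sets, maltase levels did differ beyond the spread of the libraries. With the set fitted beside the group, 5 of 10 maltases rose in set 3 against set 1 and none fell, against a background of 11.7% of all genes higher and 6.92% lower. The risers were Mal-A1, Mal-A2, Mal-A7, Mal-A8 and Mal-B1. The split of all genes depended on scaling, with 1515 higher and 894 lower under TMM and 1237 higher and 1500 lower under upper-quartile factors, while the same 5 maltases were called under both. A set is a separate experiment, and the labels do not say what else differed between sets.

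Mal-A2 had the clearest difference. It had 233, 227 and 245 CPM in the GP/P, GP/M and WT libraries of set 3, against 208, 201 and 189 CPM in those of set 1. All 3 set 3 values exceeded all set 1 values, a 1.18-fold difference (log2 fold change 0.24 ± 0.04 SE, adjusted p = 6.1e-04). Mal-A1 had 3025, 2916 and 3040 CPM in the GP/P, GP/M and WT libraries of set 3, against 2766, 2592 and 2525 CPM in those of set 1. The sets did not overlap and the fold was 1.14 (adjusted p = 0.00111). Mal-A1 and Mal-A2 were the 2 maltases called without each of the 9 libraries in turn.

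Mal-B1 differed the most in size. Its levels were 45.1, 44.9 and 55.6 CPM in the GP/P, GP/M and WT libraries of set 3, against 34.1, 27.7 and 26.5 CPM in those of set 1. The sets did not overlap, at 1.64-fold with a 95% interval of 1.23 to 2.19 (adjusted p = 0.0429), on 670 to 1375 counts per library. This call was lost on leaving out any of WT 2, WT 3, GP/P 3, GP/M 1, GP/M 2 and GP/M 3 (adjusted p up to 0.143). The log2 fold change lay between 0.54 and 0.90 over the 9 omissions. Reads that Mal-B1 may share with Pde1c, which it overlaps, were not analysed.

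Mal-A7 had 939, 855 and 1021 CPM in the GP/P, GP/M and WT libraries of set 3, against 817, 780 and 739 CPM in those of set 1, a 1.204-fold difference (adjusted p = 0.0343). Mal-A7 no longer passed on omission of WT 1, GP/P 3 or GP/M 1 (adjusted p up to 0.115). For Mal-A8 the values were 629, 592 and 683 CPM in the GP/P, GP/M and WT libraries of set 3, against 579, 573 and 546 CPM in those of set 1, a 1.12-fold difference (adjusted p = 0.0211). Mal-A8 no longer passed on omission of WT 1, WT 3 or GP/P 3 (adjusted p up to 0.133), and omission of WT 3 brought the log2 value to 0.10, against 0.16 with all libraries. In all, 3 maltases stayed called without WT 1, 2 without GP/P 3 and 3 without GP/M 1. Calls over all genes fell from 2409 to 1343, 2045 and 1499 on the same omissions.

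Of the 5 maltases not called, Mal-A3 (1.23-fold, adjusted p = 0.0779) and Mal-A4 (1.36-fold, adjusted p = 0.107) also had sets that did not overlap. DESeq2 and limma-voom called both, for 7 of 10 maltases each. Mal-A3 was called here too without WT 3, GP/P 2 or GP/M 3 (adjusted p = 0.0493, 0.0298 and 0.00363), and Mal-A6 without GP/M 3 (adjusted p = 0.0332). Mal-A6 was otherwise at 1.08-fold (adjusted p = 0.0570). Mal-A5 and Mal-B2 were the most even members. Mal-A5 had 93.9, 91.6 and 94.6 CPM in the GP/P, GP/M and WT libraries of set 3, against 96.5, 96.3 and 94.5 CPM in those of set 1, with an interval of 0.921 to 1.03 for its fold. Mal-B2 had 741, 758 and 833 CPM in set 3 against 799, 708 and 760 CPM in set 1, again in the order GP/P, GP/M and WT, with an interval of 0.963 to 1.10. The sets did not overlap for 7 of 10 maltases, against 35.4% of all genes.

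**Figure D3:**
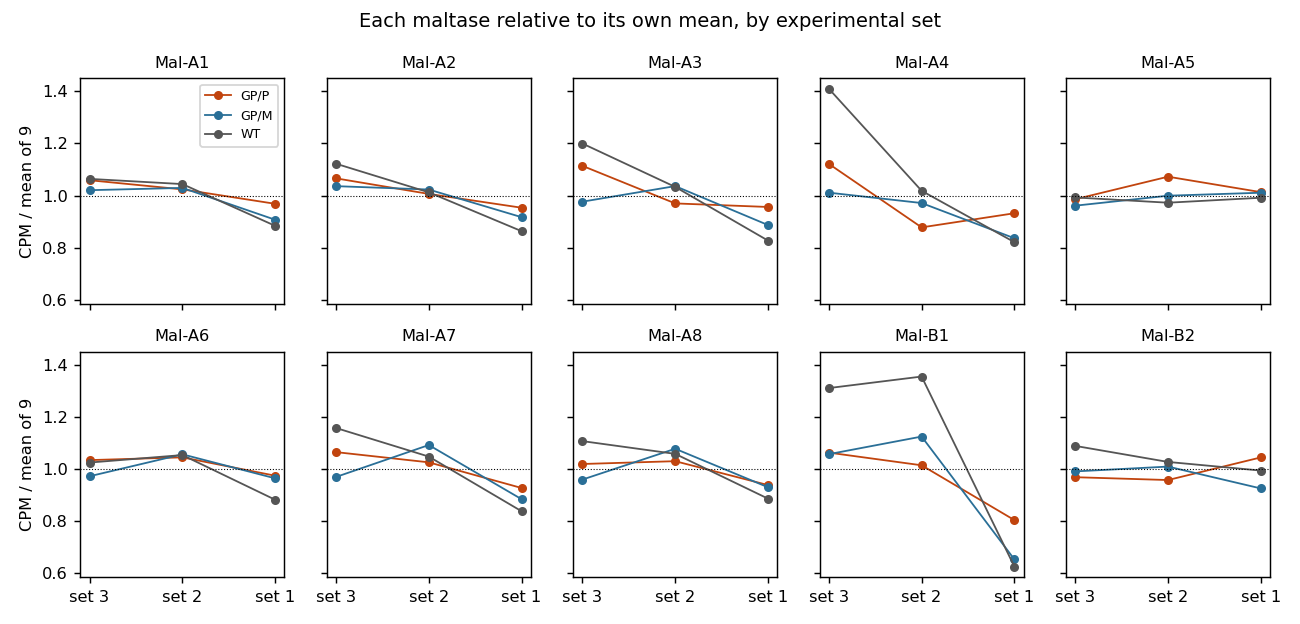
CPM of each maltase divided by its mean over the 9 libraries, by experimental set (set 3, set 2, set 1), with a line per group. Set 1 is lowest for most maltases, by most for Mal-B1, while Mal-A5 and Mal-B2 stay near 1, and the WT line spans the widest range in 9 of 10 panels.

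Calls were made against set 1 and not between sets 3 and 2. In set 3 against set 2 no maltase was called, against 4.31% of all genes higher and 1.61% lower; no maltase had an unadjusted p under 0.05, and DESeq2 and limma-voom called none. For all genes the 556 higher and 208 lower calls became 446 and 464 under upper-quartile factors. Mal-A4 had the highest fold there, 1.23 with an interval of 0.954 to 1.58. In set 2 against set 1, 4 of 10 maltases rose and none fell, where 1.49% of all genes rose and 0.984% fell. They were Mal-A1 (1.12-fold, adjusted p = 0.0111), Mal-A6 (1.12-fold, 0.0227), Mal-A8 (1.15-fold, 0.0275) and Mal-A2 (1.11-fold, 0.0475), by edgeR with Benjamini-Hochberg adjustment. Mal-A6 had 1451, 1467 and 1463 CPM in the GP/P, GP/M and WT libraries of set 2, against 1353, 1339 and 1225 CPM in those of set 1, and its set 2 values were the highest of the 3 sets in every group. Mal-B1, at 43.1, 47.7 and 57.5 CPM in the GP/P, GP/M and WT libraries of set 2, was at 1.67-fold of set 1 but was not called by edgeR (adjusted p = 0.130). It was called by DESeq2 (adjusted p = 0.00196) and limma-voom (0.00209), and by edgeR without WT 1 (0.00254) or GP/P 1 (2.3e-05). Mal-A2 was not called with RLE factors (adjusted p = 0.0547), the filter on mean log2 CPM (0.0512), DESeq2 (0.110) or limma-voom (0.0846). Its log2 fold change of 0.15 became 0.10 on omission of WT 1. DESeq2 called 4 and limma-voom 5 maltases in this comparison. The edgeR count changed with single libraries. It was 0 without WT 2, GP/P 2 or GP/M 2, 1 without WT 1 or GP/M 1, 2 without GP/P 3, and 5 at most. Calls over all genes fell too, from 319 to 190, 112 and 125 without WT 2, GP/P 2 and GP/M 2. The fold stayed above 1 for 10, 9 and 9 of the 10 maltases in these 3 fits. Any difference between sets was called for 4 of 10 maltases (Mal-A1, Mal-A2, Mal-A6 and Mal-A8), against 15.7% of all genes. Libraries of a set share their experiment, and the 10 genes vary together, so they are not 10 independent counts.

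**Figure D4:**
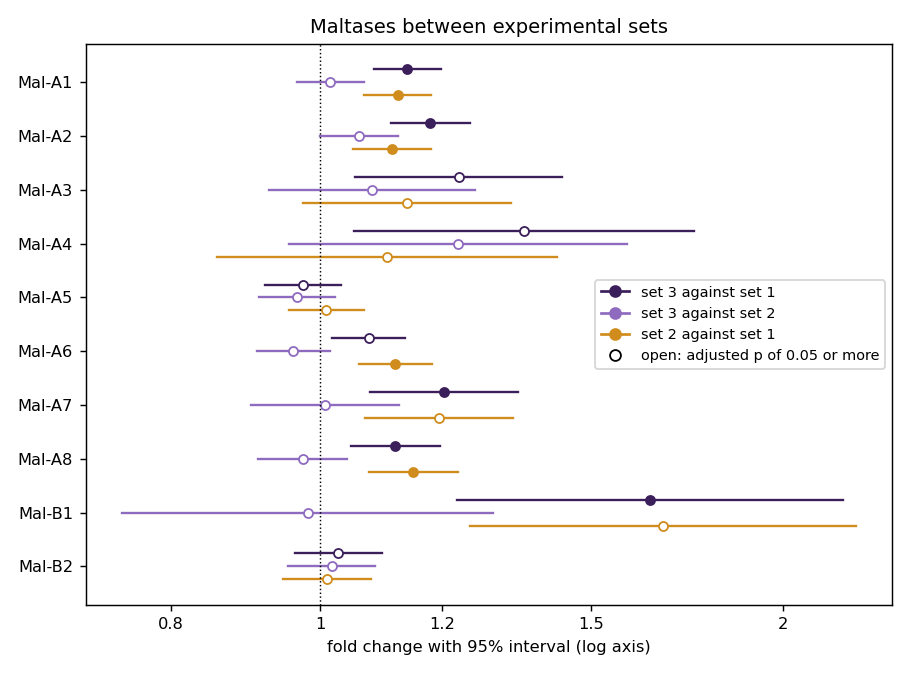
Fold change of each maltase between experimental sets (log axis) with 95% intervals from edgeR, group fitted beside set; filled points have an adjusted p under 0.05. Folds against set 1 lie above 1 for most maltases, up to 1.67 for Mal-B1 in set 2 against set 1, and no point of set 3 against set 2 is filled.

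For most maltases the lines stood above WT in set 1 and below it in set 3. In set 1 the WT library was the lowest of the 3 for 9 of 10 maltases, Mal-B2 being the exception, and in set 3 it was the highest for 9 of 10, Mal-A6 being the exception. Of all genes 39.1% had WT lowest in set 1, 34.3% had WT highest in set 3, and 12.5% had both, as did 8 of 10 maltases. For Mal-B1 the log2 difference of GP/P from WT was 0.36, -0.42 and -0.30 in sets 1, 2 and 3. For Mal-A4 the corresponding differences were 0.18, -0.21 and -0.33. WT libraries spanned the widest log2 range across sets in 9 of 10 maltases, where 38.1% of all genes had their widest range in WT. Mal-A3 spanned 0.22 in GP/P, 0.22 in GP/M and 0.54 in WT on the log2 scale, and Mal-A2 spanned 0.16, 0.18 and 0.38 in the same groups. This view of the data was chosen after the values were seen. With a single library per group and set, a difference of the group effect between sets could not be tested, and it rests on WT 1 and WT 3.

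Most maltases moved together across the 9 libraries. Of 45 pairs of members, 22 had a Pearson correlation of log2 CPM above 0.8, and the median was 0.77. With each set's mean removed the median was 0.72, and 42 pairs were above 0. Mal-A7 and Mal-A8, adjacent on 2R, had the highest value at 0.98 (0.97 within sets). Mal-B1 on 2L followed Mal-A1 on 2R at 0.95 (0.76 within sets). Mal-A5 stood apart although it lies inside the cluster, with all 7 negative pairs, down to -0.37 with Mal-A4. Within sets, Mal-A4 and Mal-A5 were at -0.07, and the pairs of Mal-A5 with Mal-A1 (0.13), Mal-A2 (0.26), Mal-A3 (0.10) and Mal-A7 (0.19) were above 0. The pairs of Mal-A5 with Mal-B1 (-0.33) and Mal-B2 (-0.25) stayed below 0 within sets. Mal-B1 and its neighbour Mal-B2 correlated at 0.51 (0.82 within sets), and both overlap Pde1c, which was not analysed. Mal-B2 kept within 708 to 833 CPM while Mal-B1 ranged over 26.5 to 57.5 CPM. These values describe 9 libraries that share sets and depth and carry no test.

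Among 11785 other genes, 5 were closest to the family's mean profile. CG34040 had r = 0.98 (Spearman rho 0.92), tobi 0.96 (0.93), mei-41 0.96 (0.83), CG9391 0.96 (0.95) and CG1208 0.96 (0.82), over 9 libraries and as a description. The gene tobi encodes an alpha-glucosidase known as a target of insulin-producing cells, and mei-41 encodes a checkpoint kinase.

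The other genes of starch and sugar digestion moved in mixed directions between sets and not between groups. Neither line had a called gene against WT in 4 lists, which were 5 genes of starch and disaccharide digestion, 11 sugar transporters, 16 regulators and 37 tested midgut markers. In the starch list the smallest p was that of tobi in both lines, at 0.963-fold in GP/P and 0.922-fold in GP/M against WT. In the other lists it was that of Tret1-2 (0.903-fold), Mlx (0.923-fold) and PGRP-SC2 (0.895-fold) in GP/P against WT. In GP/M against WT it was that of sut1 (0.949-fold), Actbeta (0.896-fold) and Jon99Fi (1.27-fold, unadjusted p = 0.0172 in the fit across all genes by edgeR). In set 3 against set 1, 2 of the 5 rose and 1 fell, beside the 11.7% and 6.92% of all genes. Treh, which splits the blood sugar trehalose, rose 1.14-fold, and the amylase relative Amyrel rose 1.66-fold. The gene tobi was not called, at a log2 fold change of 0.28 (adjusted p = 0.0863 by edgeR). The amylase Amy-p fell to 0.913-fold and its close copy Amy-d was at 0.958-fold (adjusted p = 0.242), and the split of reads between these copies is uncertain. The median log2 fold change was 0.18 in this list, 0.21 over the 10 maltases and -0.01 over all genes.

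Regulators and transporters were counted in the same comparison. Of the 16 regulators 8 rose and 0 fell, where 11.7% of all genes rose and 6.92% fell, with a median log2 fold change of 0.16. They were InR, the insulin receptor (1.51-fold), Actbeta, an activin ligand (1.24-fold), its receptor babo (1.12-fold) and the Smad factor Smox (1.14-fold). The histone deacetylase HDAC4 (1.22-fold), the nuclear receptor Hnf4 (1.13-fold), the zinc finger gene crol (1.12-fold) and the sugar sensor Mondo (1.11-fold) completed them. The sugar-responsive repressor sug was at 1.24-fold (adjusted p = 0.339) and the ligand daw at 0.991-fold (adjusted p = 0.963). Of 11 sugar transporters 4 rose, namely CG1208 (1.31-fold), Slc45-1 (1.21-fold), Glut1 (1.12-fold) and CG4607 (1.12-fold), and 2 fell, sut3 (0.866-fold) and sut1 (0.914-fold). In set 3 against set 2 the transporters Slc45-1, CG4607 and Glut1 and the regulator InR rose, beside 4.31% of all genes higher and 1.61% lower. In set 2 against set 1 CG1208 and HDAC4 rose and Amy-p fell, beside 1.49% of all genes higher and 0.984% lower, and no other gene of these 3 lists passed in either comparison.

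Midgut markers went the other way from the maltases in sum. They totalled 8596 to 8955 CPM in set 3, 8274 to 8615 CPM in set 2 and 9414 to 9836 CPM in set 1, while the 10 maltases totalled 7480 to 8252, 7608 to 7845 and 6639 to 7265 CPM in the same sets. Set 1 thus held the highest marker sums and the lowest maltase sums. In set 2 against set 1, 1 of the 37 tested markers rose and 7 fell, beside 1.49% and 0.984% of all genes. In set 3 against set 2, 3 rose and 1 fell, beside 4.31% and 1.61%. Of the 37 tested markers 5 rose and 8 fell in set 3 against set 1, beside 11.7% and 6.92% of all genes, with a median log2 fold change of 0.01. Those that fell were mostly secreted proteases, such as Jon65Aiv (0.770-fold), yip7 (0.786-fold) and the trypsin alphaTry (0.862-fold). Those that rose included npc1b, needed for sterol uptake (1.60-fold), Npc2e (2.49-fold) and the mannosidase LManIV (1.82-fold). The summed markers of some other tissues also differed between set 3 and set 1. The summed fat body markers were highest in set 3, as given above. Most of that sum came from apolpp (2214 to 2784 CPM of total counts) and Lsp2 (510 to 1236). The fat body markers fon and to instead had their lowest CPM of total counts in WT 3, a library of set 3. Muscle markers summed to 1845 to 1959 CPM in set 3, 1618 to 1754 CPM in set 2 and 1441 to 1752 CPM in set 1. Most of the muscle sum was Mhc (1158 to 1647 CPM of total counts). Testis markers summed to 891 to 944, 981 to 1056 and 959 to 1042 CPM, and Malpighian tubule markers to 107 to 114, 102 to 118 and 103 to 106 CPM, in sets 3, 2 and 1. Set 3 and set 1 did not overlap in any of these 4 sums. They did overlap for neuron and eye markers (8489 to 8813 against 8550 to 8837 CPM) and male accessory gland markers (2414 to 2538 against 2358 to 2635 CPM). Ovary and yolk markers overlapped too (15.2 to 23.7 against 13.8 to 17.0 CPM). The part of tissue content or experiment in the maltase differences was not tested.

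**Figure D5:**
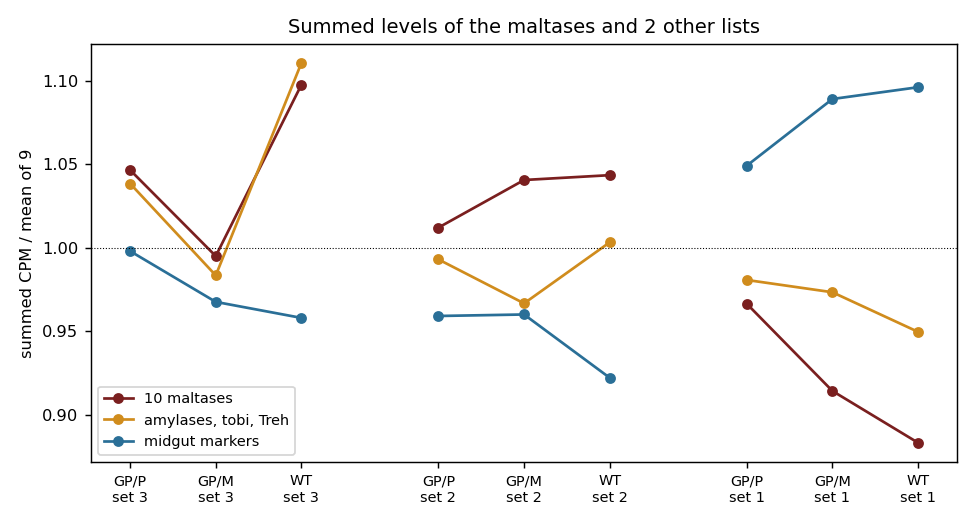
Summed CPM of the 10 maltases, of the 5 genes of starch and disaccharide digestion and of the midgut markers, each divided by its mean over the 9 libraries, by set and group. Midgut markers are highest and maltases lowest in set 1, and the WT library of set 3 is the highest for the maltases and the starch list.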

How the data were processed

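PolyA-selected mRNA of whole flies was sequenced in 9 libraries, 3 per group. The authors deposited 3 tables with raw read counts per gene, log2 fold changes and p-values, per the file headers; a further 18 columns of normalised values were not used here. Novoalign, DESeq and the build dm3 come from the submitters' processing notes. Counts of a library were identical across tables, and no libraries were copies (chi-square per gene at least 3.28).

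Counts were fitted with edgeR 4.0.16 in R 4.3.3 (TMM, filterByExpr by group, robust quasi-likelihood F-test) over all 9 libraries. Groups were compared without covariates and sets in a model of group and set. The threshold for a call was an adjusted p (Benjamini-Hochberg, over 12913 genes) under 0.05. Intervals follow from the log2 fold change and the square root of F. log2 CPM used a prior count of 2. Exon lengths came from Ensembl for 96.1% of tested genes. Alternatives were RLE and upper-quartile factors, other filters, DESeq2 1.42.0, limma-voom (limma 3.58.1), an adjusted p under 0.01, the replicate block, no group term, and leaving out each library. Scripts were tested on simulated data.

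Replicate numbers were taken to pair libraries, since the series text ties a set to each experiment. Deviations from group means correlated at 0.07 to 0.29 within sets (8 of 9 pairs over 0.1) and -0.27 to 0.03 between sets. P-values measure the spread between these libraries.

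The maltases and gene lists were chosen with earlier results of these data known. All 10 members are named, with list members past the threshold (up to 10 by p, or the 1 with the smallest p) and the 5 genes most like the mean profile. Of the list entries 105 matched and 8 did not. Protein identity and promoter motifs were not analysed here.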

Additional observations from a re-analysis of the deposited data

How the results depend on the processing

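The call of no maltase in any group comparison held under each alternative run, and the replicate block, which pairs libraries by experiment, left 0 called in all 4 group comparisons. The block narrowed the intervals and changed no call. In set 3 against set 1 the count of 5 stayed within 5 to 7 by other scaling, filter, test or covariate, was 2 at an adjusted p under 0.01, and ran from 2 to 6 on leaving out single libraries. In set 2 against set 1 it was 0 at an adjusted p under 0.01 and 0 to 5 on leaving out single libraries. Calls over all genes ran from 1256 to 2456 and from 112 to 417 on those omissions, in the same 2 comparisons. For any set difference, 2 maltases passed an adjusted p of 0.01 and 8 were called by limma-voom, against 4; the cause was not tested. Small values changed sign: Mal-A3 in GP/P against WT was at 0.0036 by limma-voom and 0.0013 with the replicate block, Mal-A2 for both lines against WT at -0.0024 with upper-quartile factors, and Mal-A1 and Mal-A7 in set 3 against set 2 at -0.0021 and -0.013 with those factors. Leaving out 1 library turned the sign of 7 of 10 maltases in GP/P against WT, 8 in GP/M against WT and 1 in set 3 against set 1.

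Ranges over the omissions of single libraries follow, on the log2 scale, for maltases whose sign turned. In GP/P against WT the log2 fold change spanned -0.049 to 0.075 (Mal-A1), -0.079 to 0.102 (Mal-A2), -0.14 to 0.12 (Mal-A3), -0.31 to 0.085 (Mal-A4), -0.028 to 0.092 (Mal-A6), -0.13 to 0.091 (Mal-A7), -0.12 to 0.032 (Mal-A8). In GP/M against WT the log2 fold change spanned -0.093 to 0.0397 (Mal-A1), -0.101 to 0.082 (Mal-A2), -0.204 to 0.056 (Mal-A3), -0.37 to 0.032 (Mal-A4), -0.0079 to 0.026 (Mal-A5), -0.055 to 0.065 (Mal-A6), -0.16 to 0.059 (Mal-A7), -0.13 to 0.025 (Mal-A8). In GP/P against GP/M the log2 fold change spanned -0.011 to 0.079 (Mal-A1), -0.0297 to 0.063 (Mal-A2), -0.0064 to 0.12 (Mal-A3), -0.055 to 0.13 (Mal-A4), -0.035 to 0.12 (Mal-A7), -0.032 to 0.074 (Mal-A8), -0.18 to 0.17 (Mal-B1), -0.018 to 0.045 (Mal-B2). For both lines against WT the log2 fold change spanned -0.071 to 0.054 (Mal-A1), -0.0900 to 0.092 (Mal-A2), -0.17 to 0.089 (Mal-A3), -0.34 to 0.058 (Mal-A4), -0.041 to 0.078 (Mal-A6), -0.15 to 0.075 (Mal-A7), -0.12 to 0.029 (Mal-A8). In set 3 against set 1 the log2 fold change spanned -0.0023 to 0.11 (Mal-B2). In set 3 against set 2 the log2 fold change spanned -0.00019 to 0.039 (Mal-A1), -0.069 to 0.092 (Mal-A7), -0.099 to 0.027 (Mal-A8), -0.14 to 0.069 (Mal-B1), -0.0078 to 0.067 (Mal-B2). In set 2 against set 1 the log2 fold change spanned -0.029 to 0.039 (Mal-A5), -0.031 to 0.089 (Mal-B2).

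Depth limits the family little: the lowest count of a maltase in a library was 670, for Mal-B1, and Mal-A1 had at least 63759. The spread between libraries and the 3 libraries per group set the width of the intervals. In the main group comparisons that spread included differences between sets, which were not fitted there. For Mal-A4 in GP/P against WT the interval was 0.653 to 1.248, and 0.711 to 1.18 with the set as a block.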
